A study of Mus musculus with 172 samples.

Results

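The genes described here belong to the oligodendrocyte lineage of the mouse cerebral cortex, the glial cells that wrap axons in myelin. The 30 members were given as a named list of myelin and oligodendrocyte genes, and all 30 were listed among the 14896 genes measured in cortex in both conditions. They were grouped by role into 13 genes of mature myelin, 8 genes of mature oligodendrocytes with broader expression, 4 lineage transcription factors, 2 genes of newly formed oligodendrocytes and 3 genes of precursors (*Pdgfra*, *Cspg4* and *Gpr17*).

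The data came from a genetic reference panel of mice in which cortex and liver RNA was sequenced after sleep deprivation (SD) and in undisturbed controls (Ctr). In cortex each condition had 39 pools: 33 BXD/RwwJ lines, recombinant inbred lines derived from C57BL/6J (B6) and DBA/2J (D2), 2 pools of each parental strain (written B6-1, B6-2, D2-1 and D2-2, with the number 1 or 2 for the replicate), and 1 pool of each reciprocal F1 cross (BD-F1 and DB-F1). Per the study's methods, B6-1 and D2-1 came from the start of data collection and B6-2 and D2-2 from its end. SD lasted 6 h from light onset by gentle handling, Ctr mice slept at will, and tissue of both was taken at zeitgeber time 6 h. The mice were males of 11 to 14 weeks. A further 4 BXD/TyJ lines (BXD05, BXD29, BXD29t and BXD32, ages not given in the sources used here) gave 4 cortex pools per condition and are described apart. The 39 lines also gave liver pools in both conditions, out of 172 libraries in all. These include 4 liver pools per condition of the BXD/TyJ lines, which are not described here.

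A pool joined RNA of 3 mice for 36 of the 39 lines, while fewer mice were available for BXD79, BXD85 and BXD101. Each line therefore gave 1 value per gene and condition, from different mice in Ctr and SD, and the p-values measure the spread between pools. The 39 lines count B6-1, B6-2, D2-1 and D2-2 separately, although B6-1 and B6-2 share a genotype, as do D2-1 and D2-2. BXD96, BXD97 and BXD103 were counted separately as well. The genotype label of each carries the number of another BXD/RwwJ line in the panel with a letter added. They may therefore not be independent of those lines, and how far their genotypes are shared was not tested. Reads recovered on the listed genes of a cortex library numbered 18995492 to 28998853 in Ctr (median 22170272) and 19025159 to 28685060 in SD (median 22713295). At this depth the counts behind a member ranged from 35 to 96 reads per pool for *Nkx2-2*, the lowest, to 26675 to 55336 reads for *Mbp*, the highest. Levels are log2 CPM, the log of reads scaled to library size, and a change is the SD level minus the Ctr level on that scale, ± its standard error (SE).

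Some cortex pools stood apart before any member was considered. The Ctr pools of BXD90 and BXD56 had the lowest median correlation with the other pools over all genes (r = 0.977 for both, against 0.981 to 0.988 for the other 76 pools). In the Ctr pool of BXD90 the deviation from the other pools went with exonic length over genes (r = -0.40, against -0.19 to 0.12 in the other 77 pools; genes are not independent replicates). The whole-transcriptome change of BXD89 had a slope of 0.27 on the mean change of the other lines, whose own slopes ran from 0.70 to 1.19. Choroid plexus markers were high in Ctr B6-1 (summed CPM 240.9), SD BXD79 (414) and SD D2-1 (297), against a median of 19.8, and pituitary markers were high in Ctr BXD100 (59.9 against 1.11). Their part in the results was not tested beyond leaving these lines out. Without BXD56, BXD89 and BXD90 the number of members that changed after SD was 20, the same number as with them.

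Oligodendrocytes arise from precursor cells that carry the receptor for platelet-derived growth factor and are spread through grey and white matter. Precursors leave the cell cycle, pass through a short committed stage, and become cells that extend membrane, wrap axons and then keep up a sheath rich in cholesterol, galactolipids and a small set of abundant proteins. In cortex mature cells are densest in the deep layers, whereas precursors are found in all layers.

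Levels were first compared between members per kilobase of exonic length (log2 CPM per kb). On that scale *Mbp*, which holds the inner faces of the myelin membrane together, had the highest mean level in Ctr at 7.62. It was followed by *Car2*, a carbonic anhydrase, at 6.73, by *Omg*, a surface glycoprotein made by oligodendrocytes and neurons, at 6.22, and by *Qdpr*, the reductase that regenerates tetrahydrobiopterin, at 6.06. The lowest levels belonged to *Nkx2-2*, a homeodomain factor of differentiating cells, at 0.15, and to *Enpp6*, a choline phosphodiesterase of newly formed oligodendrocytes, at 0.29. Of the precursor genes, *Gpr17* stood at 3.24, *Pdgfra* at 3.14 and *Cspg4* at 1.81. All members were thus detected, and the precursor genes lay between the lowest and the highest mature gene, *Cspg4* near the lower end with *Aspa* (1.47) alone of the mature genes below it.

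**Figure D1:**
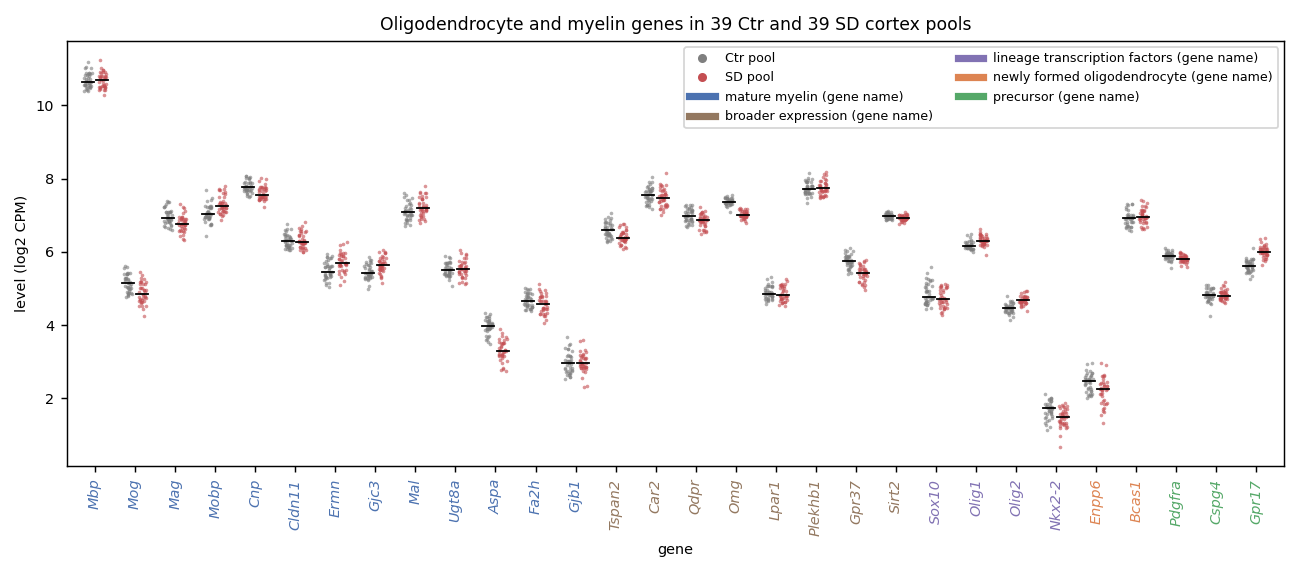
Levels of the members in log2 CPM in each of the 39 Ctr and 39 SD cortex pools, with a horizontal line at the median. The Ctr and SD pools overlapped for every member, with the clearest shifts in *Gpr17* (medians 5.61 and 6.01), *Aspa* (3.96 and 3.29) and *Omg* (7.37 and 7.01).

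The first comparison asked how 6 h of sleep deprivation moved these genes. Members moved both ways: 7 rose and 13 fell, the precursor gene *Gpr17* rose in every line and *Omg* fell in every line, and *Aspa* had the largest fall. Of the mature myelin genes 4 rose and 4 fell (3 and 4 with quantile normalization), and the genes of broader expression that changed all fell. With limma and an adjusted p under 0.05 (Benjamini-Hochberg over 14896 genes), 20 of 30 members changed, beside 68.4% of all genes. The 7 members that rose stood beside 33.0% of all genes that rose, and the 13 that fell beside 35.4%, so the members' shares were near those of the whole transcriptome. With the line as a block, which pairs the Ctr and SD pools of a line, 8 rose beside 36.6% of all genes and 15 fell beside 39.6% (23 members beside 76.3%). Only *Gpr17* and *Omg* moved with the same sign in all 39 lines, beside 11.2% of all genes. In bulk RNA, fewer cells of a type and less RNA per cell cannot be told apart.

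Among the 13 mature myelin genes 4 rose (*Mobp*, *Ermn*, *Gjc3* and *Mal*, the last not with quantile normalization), 4 fell (*Aspa*, *Mog*, *Mag* and *Cnp*) and 5 did not pass the test. Their median change was 0.0023, beside -0.0097 over all genes, and its sign turned with the setting (-0.0077 to 0.019 over 15 alternatives). The largest fall belonged to *Aspa*, the enzyme that splits N-acetylaspartate into acetate and aspartate in oligodendrocytes. Its level ran from 3.49 (BXD89) to 4.34 (BXD87) in Ctr with a median of 3.96, and from 2.75 (D2-2) to 3.89 (BXD85) in SD with a median of 3.29. The groups overlapped only at their edges: 27 of the 39 SD pools lay below the lowest Ctr pool, and 29 Ctr pools lay above the highest SD pool. *Aspa* fell by 0.66 ± 0.054 (fold 0.633, adjusted p = 1.0e-18), in 38 of 39 lines. The change ran from -1.27 in BXD50 to 0.19 in BXD89, the line with the small change over all genes.

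*Mog*, a glycoprotein on the outer surface of the sheath, had Ctr levels from 4.77 (BXD100) through a median of 5.14 to 5.61 (BXD73). In SD it ran from 4.24 (D2-2) through 4.85 to 5.45 (BXD87). The groups overlapped widely, with 17 SD pools below every Ctr pool and 3 Ctr pools above every SD pool. *Mog* fell by 0.27 ± 0.058 (fold 0.828, adjusted p = 2.3e-05), in 34 of 39 lines, most in D2-2 (-0.81). *Mag*, the glycoprotein of the membrane next to the axon, fell by 0.18 ± 0.049 (adjusted p = 0.00099) in 32 lines. *Cnp*, a cyclic nucleotide phosphodiesterase of the uncompacted membrane, fell by 0.18 ± 0.037 (adjusted p = 1.9e-05) in 35 lines. For both, BXD43 gave the largest fall (-0.58 for *Mag* and -0.49 for *Cnp*) and BXD71 the largest rise (0.29 and 0.12).

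*Mobp*, a small basic protein of compact myelin, moved the other way from *Mog*. It ran from 6.43 (BXD90) to 7.70 (B6-1) in Ctr with a median of 7.02, and from 6.87 (D2-2) to 7.80 (BXD70) in SD with a median of 7.27. Most pools of both groups shared a range, with 3 SD pools above every Ctr pool and 6 Ctr pools below every SD pool. *Mobp* rose by 0.25 ± 0.052 (fold 1.19, adjusted p = 1.6e-05), in 34 of 39 lines. The largest rise was in BXD90 (0.61), whose Ctr pool stood apart. *Ermn*, a cytoskeletal protein of the mature cell, rose by 0.22 ± 0.055 (adjusted p = 0.00043) in 32 lines. *Gjc3*, a connexin of glial gap junctions, rose by 0.20 ± 0.045 (adjusted p = 7.3e-05) in 36 lines. *Mal*, a proteolipid that sorts membrane to the sheath, rose by 0.13 ± 0.053 (adjusted p = 0.028) in 32 lines, and with quantile normalization it gave 0.088 and did not pass (adjusted p = 0.14).

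The other 5 mature genes did not pass the test. *Mbp* ran from 10.38 (BXD100) to 11.20 (BXD87) in Ctr with a median of 10.65, and from 10.28 (BXD43) to 11.24 (BXD87) in SD with a median of 10.70. The pools of both groups covered almost the same range. Its change was 0.00019 ± 0.045 with a 95% interval from -0.090 to 0.090, it was above 0 in 18 lines, and it turned to -0.0040 with each library centred on its median. *Cldn11*, the claudin of the junctions between myelin layers, gave 0.017 ± 0.043 (-0.018 with quantile normalization), and *Ugt8a*, which makes galactosylceramide, gave 0.027 ± 0.046. *Gjb1*, a connexin shared with liver, gave 0.0023 ± 0.061 (-0.0019 with each library centred on its median). *Fa2h*, which hydroxylates the fatty acids of myelin lipids, gave -0.096 ± 0.050 (adjusted p = 0.077, below 0 in 25 lines), and with the line as a block its adjusted p was 0.020.

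**Figure D2:**
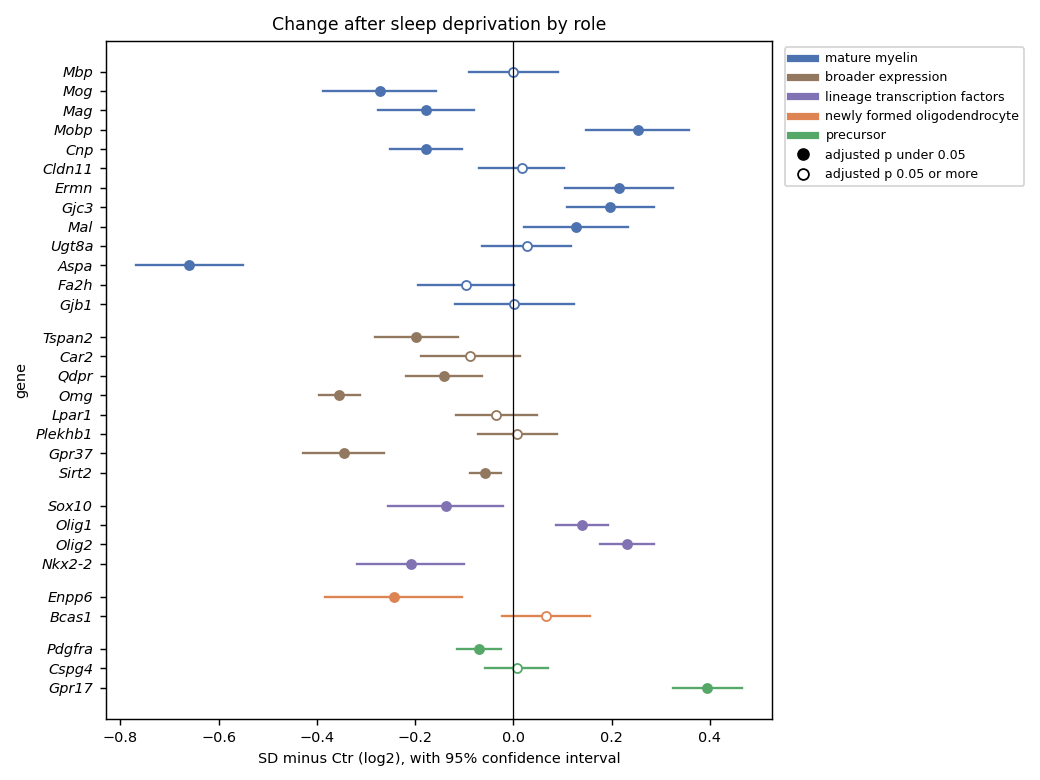
Change of each member after SD (SD minus Ctr, log2) with its 95% confidence interval, by role, over 39 Ctr and 39 SD cortex pools; filled points passed an adjusted p of 0.05. The mature myelin genes lie on both sides of 0, from *Aspa* at -0.66 to *Mobp* at 0.25, and *Mal* (0.13) did not pass with quantile normalization.

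Promoter sequences were set beside these opposite changes, for the mature gene with the largest rise, the one with the largest fall, and *Mog*, whose pools entered most of the correlations. They run from 250 bases before to 50 bases after the gene start (RefSeq, build GRCm38.p6, while gene positions given elsewhere are on mm9 and cannot be set against these). Capitals mark ACAAAG, letters recognised by SOX factors, or CANNTG, the E-box of the class bound by OLIG factors, on either strand, and no matches of both motifs overlapped. *Mobp* lies at chr9:120149492-120149791 on the plus strand and holds 6 matches of ACAAAG (read as CTTTGT) and 0 of CANNTG. *Aspa* lies at chr11:73324588-73324887 on the minus strand and holds 4 matches of CANNTG and 0 of ACAAAG. *Mog* lies at chr17:37023349-37023648 on the minus strand and holds 0 of both. Of the other mature genes that rose, *Gjc3* holds 0 of ACAAAG and 2 of CANNTG, and *Ermn* and *Mal* hold 0 of both, while *Cnp*, which fell, holds 1 of each. *Mag*, which fell as well, has more than 1 promoter in the table and is not set beside them.
Mobp: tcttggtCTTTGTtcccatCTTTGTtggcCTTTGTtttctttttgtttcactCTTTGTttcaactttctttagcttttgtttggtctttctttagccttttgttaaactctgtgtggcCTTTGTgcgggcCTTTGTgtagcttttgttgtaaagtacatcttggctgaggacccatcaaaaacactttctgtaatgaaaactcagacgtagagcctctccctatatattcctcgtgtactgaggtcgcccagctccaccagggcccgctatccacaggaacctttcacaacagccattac
Aspa: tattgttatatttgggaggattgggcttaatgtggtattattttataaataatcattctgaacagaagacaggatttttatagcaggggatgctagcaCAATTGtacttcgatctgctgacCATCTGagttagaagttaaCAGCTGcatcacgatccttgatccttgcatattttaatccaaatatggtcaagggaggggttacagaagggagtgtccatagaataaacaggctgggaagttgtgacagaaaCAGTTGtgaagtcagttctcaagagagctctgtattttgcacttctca
Mog: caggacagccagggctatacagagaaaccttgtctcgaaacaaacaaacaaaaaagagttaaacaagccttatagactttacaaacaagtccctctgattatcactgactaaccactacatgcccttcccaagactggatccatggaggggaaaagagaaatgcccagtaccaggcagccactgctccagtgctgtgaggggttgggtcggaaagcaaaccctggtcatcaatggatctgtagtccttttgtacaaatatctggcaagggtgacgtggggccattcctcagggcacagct

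Of 32851 mouse promoters of the same length, 18.7% held ACAAAG and 72.3% held CANNTG. Of the members, 22 had a promoter in the table, with 31 promoters among them. ACAAAG was found in 10 of these 31 promoters, belonging to 7 members, and CANNTG in 19 promoters, belonging to 13 members. The table held no entry for *Fa2h*, *Sox10*, *Omg*, *Bcas1*, *Car2*, *Olig1*, *Mbp* and *Gpr17*. A match describes letters in this window and was not tested for binding.

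Of the 8 genes of broader expression, which mature oligodendrocytes share with neurons, astrocytes or other organs, 5 fell, 0 rose and 3 did not pass the test. Their median change was -0.11. *Omg* was the one that fell in every line. It ran from 7.10 (BXD56) to 7.56 (BXD51) in Ctr with a median of 7.37, and from 6.79 (BXD81) to 7.18 (BXD90) in SD with a median of 7.01. The groups were almost separate: 38 of the 39 Ctr pools lay above the highest SD pool, and 29 SD pools lay below the lowest Ctr pool, that of BXD56. *Omg* fell by 0.35 ± 0.021 (fold 0.782, adjusted p = 1.3e-26) in 39 of 39 lines, from -0.61 in BXD64 to -0.11 in BXD89.

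*Gpr37*, a G protein-coupled receptor of oligodendrocytes and some neurons, ran from 5.40 to 6.10 in Ctr (median 5.75) and from 4.97 to 5.79 in SD (median 5.41). The lowest Ctr pool was BXD89 and the highest SD pool BXD87, and 17 SD pools lay below every Ctr pool. *Gpr37* fell by 0.35 ± 0.042 (fold 0.787, adjusted p = 1.2e-11) in 35 of 39 lines. *Tspan2*, a tetraspanin of early myelin, fell by 0.20 ± 0.042 (adjusted p = 2.7e-05) in 35 lines, most in BXD56 (-0.62). *Qdpr* fell by 0.14 ± 0.039 (adjusted p = 0.00090) in 35 lines, most in BXD90 (-0.57). The Ctr pools of both BXD56 and BXD90 stood apart over all genes. *Sirt2*, a tubulin deacetylase of the sheath that neurons also make, had the smallest fall that passed, 0.057 ± 0.016 lower (fold 0.961, adjusted p = 0.0012) in 33 lines.

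Of the 3 that did not pass, *Car2* gave -0.087 ± 0.050 (adjusted p = 0.12) and was lower in 29 lines. With the line as a block its adjusted p was 3.0e-05, and with quantile normalization its value was -0.13 (adjusted p = 0.025). *Lpar1*, a receptor for lysophosphatidic acid, gave -0.034 ± 0.042. *Plekhb1*, a protein with a membrane-binding pleckstrin homology domain, gave 0.0085 ± 0.040, which turned to -0.032 with quantile normalization.

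The 4 lineage transcription factors all passed the test, 2 upward and 2 downward. *Olig2*, the factor that sets up the lineage and stays on in precursors and mature cells, ran from 4.13 (BXD101) to 4.80 (BXD55) in Ctr with a median of 4.46. In SD it ran from 4.37 (BXD90) to 4.93 (BXD55) with a median of 4.67. Of the pools, 10 Ctr pools lay below every SD pool and 5 SD pools above every Ctr pool. *Olig2* rose by 0.23 ± 0.028 (fold 1.17, adjusted p = 1.1e-11) in 38 of 39 lines. The exception was BXD90 (-0.25), whose Ctr pool stood apart. Its neighbour *Olig1*, which lies 41.1 kb away on chromosome 16 and is needed for maturation, rose by 0.14 ± 0.027 (adjusted p = 3.8e-06) in 36 lines. The 3 lines in which *Olig1* was lower were BXD90, D2-2 and B6-1.

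The other 2 factors fell. *Sox10*, which switches on myelin genes, ran from 4.43 (BXD71) to 5.60 (BXD56) in Ctr with a median of 4.76, and from 4.29 (BXD43) to 5.12 (BXD55) in SD with a median of 4.70. The Ctr pool of BXD56 stood highest, and 8 Ctr pools lay above every SD pool. *Sox10* fell by 0.14 ± 0.059 (adjusted p = 0.033) in 32 of 39 lines, and over the 33 BXD/RwwJ lines alone it gave -0.13 and did not pass (adjusted p = 0.060). *Nkx2-2* fell by 0.21 ± 0.055 (adjusted p = 0.00055) in 29 lines. At a median of 66 reads per pool its values per line were the least precise of the members, and its change ran from -1.10 in BXD95 to 0.45 in BXD89.

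The 2 genes of newly formed oligodendrocytes differed. *Enpp6* ran from 2.00 (BXD84) to 2.95 (BXD87) in Ctr with a median of 2.47, and from 1.32 (BXD81) to 2.97 (BXD87) in SD with a median of 2.24. The SD pools were spread wider, and 12 of them lay below every Ctr pool. *Enpp6* fell by 0.24 ± 0.070 (fold 0.845, adjusted p = 0.0015) in 31 of 39 lines, most in BXD43 (-0.98). *Bcas1*, a marker of cells beginning to myelinate that also stays on in mature cells, gave 0.066 ± 0.045 (adjusted p = 0.19, above 0 in 26 lines). With the line as a block its adjusted p was 0.0046.

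The 3 precursor genes each behaved in their own way, and their median change was 0.0066, which turned to -0.0055 over the 33 BXD/RwwJ lines alone and to -0.0028 with quantile normalization. *Gpr17*, a receptor of precursors that have committed to differentiate, ran from 5.26 (BXD98) to 6.11 (BXD55) in Ctr with a median of 5.61, and from 5.64 (BXD98) to 6.37 (BXD55) in SD with a median of 6.01. The same lines were lowest and highest in both conditions. The groups overlapped in part, with 21 Ctr pools below every SD pool and 9 SD pools above every Ctr pool. *Gpr17* rose by 0.40 ± 0.035 (fold 1.31, adjusted p = 4.0e-17) in 39 of 39 lines, from 0.11 in BXD89 to 0.63 in D2-1.

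*Pdgfra*, the growth factor receptor that defines precursors, ran from 5.55 (BXD90) to 6.11 (BXD44) in Ctr with a median of 5.89, and from 5.58 (BXD98) to 6.01 (BXD81) in SD with a median of 5.82. Nearly all pools of both groups lay in a shared range. *Pdgfra* fell by 0.070 ± 0.022 (fold 0.952, adjusted p = 0.0043) in 29 of 39 lines. BXD90, whose Ctr pool stood apart, had the largest rise (0.21). *Cspg4*, a proteoglycan on the surface of precursors and pericytes, ran from 4.25 (BXD90) to 5.09 (BXD67) in Ctr with a median of 4.83, and from 4.60 (BXD96) to 5.17 (B6-1) in SD with a median of 4.80. Its change was 0.0066 ± 0.032 with a 95% interval from -0.058 to 0.071, above 0 in 19 lines. Its sign was the one that turned the median of the precursor genes.

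Line by line, the mean of the 13 mature genes ran from 5.81 (BXD100) to 6.46 (BXD87) in Ctr and from 5.65 (D2-2) to 6.46 (BXD87) in SD. BXD87 was highest in both conditions. The change of this mean was above 0 in 18 lines and below 0 in 21, from -0.40 in BXD43 to 0.31 in BXD71. The mean of the 3 precursor genes ran from 5.14 (BXD90) to 5.72 (BXD55) in Ctr and from 5.29 (BXD98) to 5.80 (D2-1) in SD. It was higher after SD in 33 of 39 lines, from -0.14 in BXD96 to 0.34 in BXD90, whose Ctr pool stood apart. Of its genes only *Gpr17* was higher in all 39 lines. *Pdgfra* was lower in 29 lines and *Cspg4* in 20. The mean of the genes of broader expression was lower after SD in 35 lines, down to -0.37 in BXD64.

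**Figure D3:**
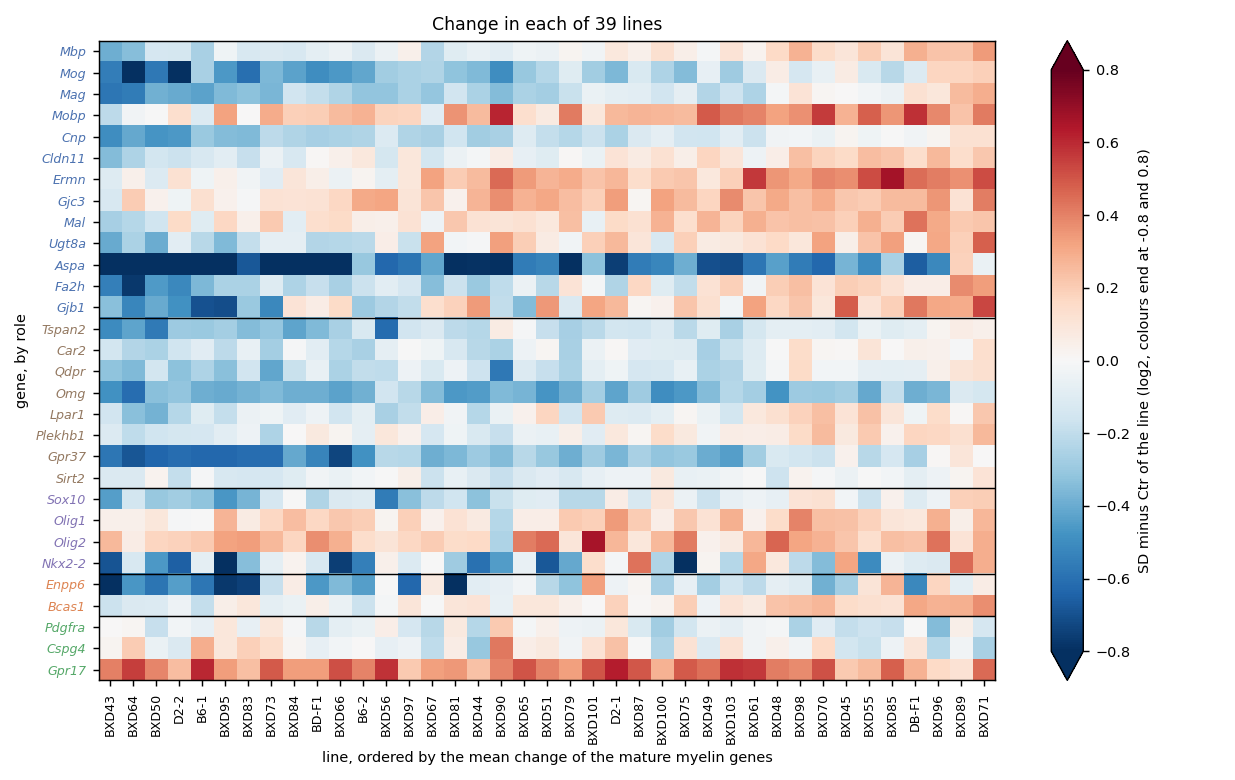
Change of each member (vertical, grouped by role) in each of the 39 lines (horizontal), as SD minus Ctr in log2 CPM, with red above 0 and blue below 0. *Gpr17* is above 0 and *Omg* below 0 in all 39 lines, while the mature myelin genes tend to share their shade within a line, from BXD43 (mean change -0.40) to BXD71 (0.31).

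The second comparison asked how far the lines differ in these genes, with the Ctr and SD pools of a line as its 2 measurements. Members differed widely between lines. The lowest and highest line stood 1.98-fold apart in *Car2* and 1.88-fold in *Mal*, but 1.27-fold in *Omg* and 1.19-fold in *Sirt2*. With limma, the line terms passed for 27 of 30 members, beside 55.2% of all genes, the exceptions being *Aspa*, *Olig2* and *Nkx2-2*. Line means of *Car2* ran from 7.11 (BXD66) to 8.09 (BXD55), 1.98-fold apart (adjusted p = 1.4e-14). For *Mal* they ran from 6.79 (D2-2) to 7.70 (BXD73), 1.88-fold apart (adjusted p = 1.7e-11). For *Gjc3* they ran from 5.08 (BXD66) to 5.93 (BXD73), 1.80-fold apart (adjusted p = 4.6e-11). These were the 3 members with the smallest p-values for line.

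Of the other members, *Sox10* ran from 4.46 (D2-2) to 5.32 (BXD56, whose Ctr pool stood apart), *Bcas1* from 6.62 (BXD100) to 7.34 (BXD55), and *Plekhb1* from 7.41 (BXD100) to 8.17 (BXD87). The span was widest for *Enpp6*, from 1.72 (BXD81) to 2.96 (BXD87), 2.36-fold apart (adjusted p = 0.00024). Among the precursor genes *Gpr17* spanned 1.73-fold, from 5.45 (BXD98) to 6.24 (BXD55, adjusted p = 1.1e-06). *Cspg4* ran from 4.47 to 5.05 (adjusted p = 0.0028) and *Pdgfra* 1.27-fold (adjusted p = 0.037), both lowest in BXD90, whose Ctr pool stood apart. *Pdgfra* did not pass over the 33 BXD/RwwJ lines alone (adjusted p = 0.061) or without a variance trend (0.064). *Omg* spanned 1.27-fold (adjusted p = 0.012) and *Sirt2* 1.19-fold (adjusted p = 0.0029). For *Aspa*, *Olig2* and *Nkx2-2* the adjusted p-values were 0.057, 0.064 and 0.75, and without BXD56, BXD89 and BXD90 those of *Aspa* and *Olig2* were 0.0066 and 0.011. With voom on recovered reads *Aspa* and *Olig2* passed as well (adjusted p = 0.047 and 0.043), and *Olig2* passed without BXD79, BXD85 and BXD101 (0.023). The genotype of a line and the cohorts shared by its mice cannot be told apart.

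BXD87 had the highest line mean in *Mbp* (11.22), *Mog* (5.51), *Mag* (7.34), *Cldn11* (6.79), *Ugt8a* (5.91), *Aspa* (4.06), *Fa2h* (5.05), *Tspan2* (6.84) and *Gpr37* (5.92) as well as in *Enpp6* and *Plekhb1*. BXD55 was highest in *Qdpr* (7.25), *Sirt2* (7.10), *Olig1* (6.54) and *Olig2* (4.86) beside *Car2*, *Bcas1* and *Gpr17*. BXD66 was lowest in 6 members, BXD90 (whose Ctr pool stood apart) in 5, and BXD100 and D2-2 in 4 each. Among these, BXD66 was lowest in *Ermn* (5.13), *Ugt8a* (5.23), *Tspan2* (6.20) and *Lpar1* (4.61), and BXD100 in *Mog* (4.65) and *Mag* (6.53). D2-1 and D2-2 share a genotype, as do B6-1 and B6-2, but were counted as separate lines. So were BXD96, BXD97 and BXD103, whose genotype labels carry the number of another line in the panel. *Cnp* was lowest in D2-2 (7.47) and highest in BXD85 (8.01), *Mobp* lowest in BXD90 (6.73) and highest in B6-1 (7.64), and *Gjb1* lowest in BXD50 (2.53) and highest in BXD70 (3.53), a line difference that did not pass without a variance trend (adjusted p = 0.058) or without BXD79, BXD85 and BXD101 (0.068).

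The third comparison set the parental strains against each other, 4 pools of D2 against 4 of B6 with condition in the model. Mature myelin members were lower in D2: 12 of 13 passed downward, all but *Aspa*, while *Car2* alone was higher in D2 and the 3 precursor members gave 0 calls. With limma 19 of 30 members differed, beside 25.5% of all genes. Of these 18 were lower in D2, beside 13.9%, and 1 was higher, beside 11.6%. For 9 members all 4 D2 pools lay below all 4 B6 pools, beside 9.70% of all genes. The median difference of the mature genes was -0.36, beside 0.011 over all genes. In a list of 30 other mature oligodendrocyte genes 7 were lower in D2, 1 was higher and 22 did not pass, with a median difference of -0.13. In a list of 15 other precursor or committed genes 3 were lower in D2 and 1 was higher, with a median difference of 0.032.

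*Mobp* differed most. In B6 it stood at 7.70 and 7.41 in the Ctr pools and at 7.59 and 7.69 in the SD pools. In D2 it stood at 6.97 and 6.74 in Ctr and at 7.23 and 6.87 in SD. All D2 pools lay below all B6 pools, and *Mobp* was lower in D2 (difference -0.64 ± 0.078, fold 0.640, limma adjusted p = 1.8e-05). *Mal* gave 7.55 and 7.46 in B6 Ctr, 7.45 and 7.51 in B6 SD, 6.87 and 6.72 in D2 Ctr, and 7.02 and 6.87 in D2 SD. These groups too were apart, with little spread in B6 (-0.63 ± 0.051, limma adjusted p = 3.0e-07).

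*Mog* stood at 5.39 and 5.59 in B6 Ctr, at 5.13 and 5.17 in B6 SD, at 5.03 and 5.05 in D2 Ctr, and at 4.67 and 4.24 in D2 SD. The strains came close, with the highest D2 pool at 5.05 and the lowest B6 pool at 5.13, and no D2 pool reached a B6 pool (difference -0.57 ± 0.083, limma adjusted p = 0.00011). *Sox10* stood at 5.42 and 5.15 in B6 Ctr, 5.09 and 5.05 in B6 SD, 4.71 and 4.60 in D2 Ctr, and 4.77 and 4.32 in D2 SD. It was lower in all D2 pools (-0.58 ± 0.085, limma adjusted p = 0.00012). *Car2* went the other way, at 7.26, 7.35, 7.17 and 7.09 in the B6 pools and 7.76, 7.72, 7.76 and 7.55 in the D2 pools. All D2 pools lay above all B6 pools (0.48 ± 0.048, fold 1.40, limma adjusted p = 2.6e-06).

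The other mature genes lower in D2 were *Mag* (-0.44), *Gjb1* (-0.38), *Cnp* (-0.38), *Cldn11* (-0.36), *Gjc3* (-0.36), *Fa2h* (-0.33), *Mbp* (-0.30), *Ermn* (-0.29) and *Ugt8a* (-0.23). Of the remaining roles, *Enpp6* (-0.39), *Tspan2* (-0.35), *Qdpr* (-0.28), *Bcas1* (-0.24) and *Sirt2* (-0.13) were lower in D2. The other 11 members did not pass. Among them *Omg* differed by 0.024 ± 0.036 and *Gpr17* by 0.089 ± 0.060. *Pdgfra* differed by 0.096 ± 0.044 (limma adjusted p = 0.13, with the 4 D2 pools between 5.88 and 5.98 and the 4 B6 pools between 5.80 and 5.91), and *Aspa* by -0.24 ± 0.13 (limma adjusted p = 0.19). *Olig2* gave 0.041 ± 0.061, a sign that turned without B6-2 (-0.0060) and without D2-1 (-0.037).

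The count of 19 depended on which replicates (a Ctr and an SD pool from the same sampling time) were in the fit. Without B6-2 12 members passed and *Mbp*, *Ermn*, *Ugt8a*, *Fa2h*, *Gjb1*, *Sirt2* and *Enpp6* were lost, all still lower in D2, with differences from -0.14 (*Sirt2*) to -0.39 (*Gjb1*). Without D2-2 11 passed, with these 7 and *Bcas1* lost, again all lower in D2 but closer to 0: *Fa2h* went from -0.33 to -0.11, *Mbp* from -0.30 to -0.16, *Enpp6* from -0.39 to -0.19 and *Gjb1* from -0.38 to -0.24. D2-2 was the lowest of the SD pools in *Mog*, *Mobp*, *Cnp*, *Aspa*, *Fa2h* and *Sirt2*. Without a variance trend 11 members passed, and over all genes the count fell from 3804 to 2398 without D2-1 and to 2527 without D2-2. Choroid plexus markers summed to 240.9 CPM in Ctr B6-1 and to 297 in SD D2-1, and without these replicates 16 and 18 members passed. The F1 pools were not in this fit: *Mobp* stood at 7.12 and 7.31 (Ctr and SD) in BD-F1 and at 6.76 and 7.35 in DB-F1, and *Car2* at 7.64 and 7.55 in BD-F1 and at 7.39 and 7.42 in DB-F1.

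Markers of other cells differed between the strains as well, in both directions, beside 13.9% of all genes lower and 11.6% higher in D2. Striatum markers gave 3 of 6 lower and 0 higher in D2, with a median difference of -0.42. Their summed CPM (*Ppp1r1b* the most abundant) was 271 and 178 in B6 Ctr, 318 and 207 in B6 SD, 160 and 141 in D2 Ctr, and 231 and 154 in D2 SD. In Ctr both B6 pools lay above both D2 pools, while in SD the strains overlapped. B6-1 was highest in both conditions. Microglia markers gave 3 of 7 lower and 1 higher (median -0.12, sums of 338 to 385 in B6 and 312 to 338 in D2, *Csf1r* the most abundant). Endothelial markers gave 2 of 6 lower and 0 higher (median -0.061, sums of 244 to 264 and 224 to 237, *Flt1*). Fibroblast markers gave 2 of 6 higher and 0 lower in D2 (median 0.14, sums of 45.0 to 66.1 in B6 and 60.9 to 67.1 in D2, *Col1a2*). Neuron markers gave 2 of 7 higher and 0 lower, and astrocyte markers 1 of 7 higher and 2 lower. Pericyte, thalamus and hippocampus markers gave 1 lower each. Their part in the difference of the myelin genes was not tested beyond leaving out replicates.

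**Figure D4:**
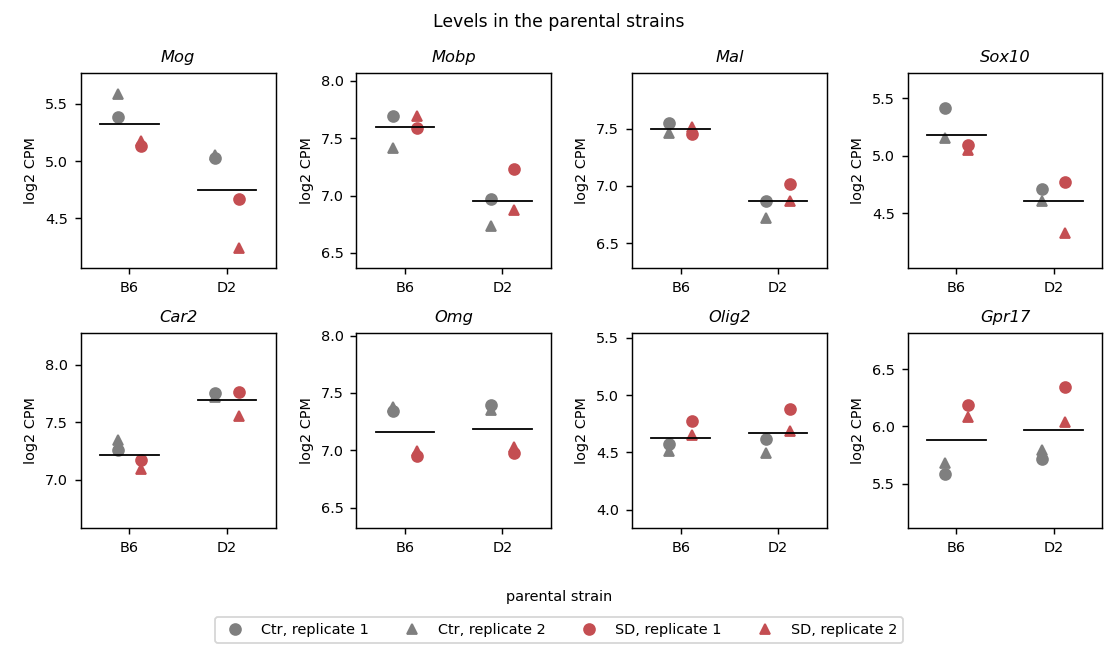
Levels (log2 CPM) of 8 members in the parental pools, 2 Ctr and 2 SD pools per strain, with a line at the strain mean. *Mog*, *Mobp*, *Mal* and *Sox10* were lower in all D2 pools and *Car2* higher, while the strains overlapped in *Omg*, *Olig2* and *Gpr17*.

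The fourth question was how the members vary together over the 39 lines. Mature myelin genes rose and fell together from pool to pool, and precursor genes did not follow them. The median Pearson r over the 78 pairs of mature genes was 0.74 in Ctr, 0.74 in SD and 0.65 for the change, with no pair below 0. Over the 39 pairs of a mature and a precursor gene it was 0.0079 in Ctr, -0.091 in SD and -0.19 for the change, where 36 of the 39 pairs were below 0. Among the 3 pairs of precursor genes the medians were 0.34, 0.44 and 0.48. Pairs of a mature gene and a gene of newly formed cells had medians of 0.70, 0.68 and 0.57, close to the mature pairs. Many pairs share a gene and are not independent, and no pairs over all genes were set beside them.

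Tests were run on 36 relations, 12 gene pairs each in Ctr, SD and change, and 21 passed an adjusted p under 0.05 with a permutation test (100000 resamples, 2-sided, smallest possible p 1e-05). *Mog* and *Mag* went together in Ctr (r = 0.83, rho = 0.79, permutation p = 1e-05 for both, adjusted p = 3.0e-05 and 4.5e-05, r = 0.80 without the 2 farthest pools). For the change they gave r = 0.79 and rho = 0.75 with the same p-values (r = 0.77 without the 2 farthest). *Mog* and *Mobp*, which changed in opposite directions on average, still rose and fell together over lines. Their r was 0.66 in Ctr (rho = 0.69, permutation p = 2e-05 and 1e-05, adjusted p = 5.5e-05 and 4.5e-05, 0.59 without the 2 farthest). For the change it was 0.48 (rho = 0.51, permutation p = 0.0020 and 0.0011, adjusted p = 0.0039 and 0.0024, 0.43 without the 2 farthest).

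*Mbp* with *Mog* (r = 0.85, 0.75 and 0.76 in Ctr, SD and change) and *Cldn11* with *Ermn* (0.69, 0.68 and 0.63) passed in all 3. *Mog* with *Sox10* passed in all 3 as well (0.49, 0.66 and 0.53). *Sox10* with *Olig2* gave r = 0.37 in Ctr (rho = 0.33, permutation p = 0.022 and 0.043, adjusted p = 0.038 and 0.072), 0.34 in SD and 0.11 for the change. In Ctr it did not pass without BXD56 and B6-1 (r = 0.28, adjusted p = 0.15) or over the 33 BXD/RwwJ lines alone (r = 0.37, adjusted p = 0.057).

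Of the pairs of precursor genes, *Pdgfra* with *Cspg4* and *Pdgfra* with *Gpr17* were tested. *Pdgfra* and *Cspg4* passed in all 3, with r = 0.74 in Ctr (rho = 0.62, permutation p = 1e-05 and 6e-05, adjusted p = 3.0e-05 and 0.00017, 0.57 without BXD44 and BXD90), 0.51 in SD and 0.68 for the change. *Pdgfra* and *Gpr17* passed in SD alone (r = 0.44, rho = 0.35, permutation p = 0.0046 and 0.027, adjusted p = 0.0084 and 0.048), but not without BXD75 and BXD98 (r = 0.30, adjusted p = 0.12), while in Ctr the pair passed without BXD44 and BXD90 (r = 0.38, adjusted p = 0.038). Without BXD56, BXD89 and BXD90 that pair passed in Ctr (r = 0.44, adjusted p = 0.013) and for the change (r = 0.42, adjusted p = 0.019) too. *Gpr17* with *Enpp6*, the next step of the lineage, gave -0.056, 0.15 and 0.13 and did not pass. *Mog* with *Pdgfra* gave -0.073 in Ctr (0.039 without the 2 farthest pools), -0.22 in SD and -0.28 for the change (rho = -0.28, permutation p = 0.083 and 0.088, adjusted p = 0.12 for both), and did not pass.

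**Figure D5:**
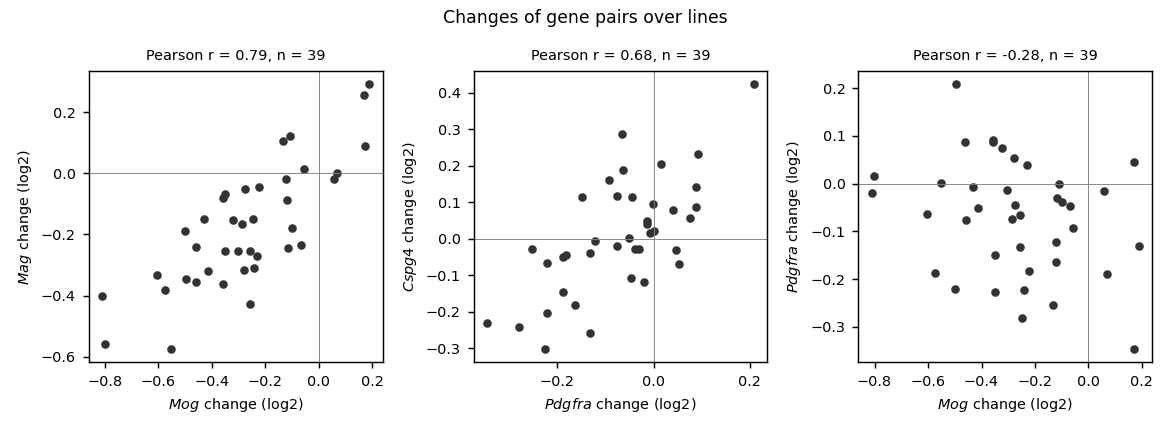
Change after SD (log2) of one gene against another for pairs of members, 1 point per line (39 lines). *Mog* and *Mag* (r = 0.79) and *Pdgfra* and *Cspg4* (r = 0.68) changed together, while *Mog* and *Pdgfra* (r = -0.28) did not pass.

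As a description, each member was also set against the mean of the mature genes over the 39 lines (for a mature gene, a mean that holds the gene or its near relatives). For the change, r was highest for *Cnp* (0.93), *Mag* (0.90) and *Mbp* (0.89), and of the non-mature genes for *Gpr37* (0.88) and *Bcas1* (0.82). *Car2*, with low values in levels (0.13 in Ctr and 0.16 in SD), gave 0.62 for the change. In Ctr levels *Omg* (0.14, and 0.42 in SD), *Nkx2-2* (0.16, and 0.32 in SD) and *Sirt2* (0.20, and 0.29 in SD) were low as well. For the change *Olig2* gave 0.13, *Pdgfra* -0.27, *Cspg4* -0.31 and *Gpr17* -0.16.

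Of the genes outside all lists, the 10 whose level was most like the mature mean over the 78 pools were *Plekhh1* (r = 0.88), *Ttyh2* (0.87), *Phldb1* (0.85), *Gatm* (0.83), *Slc44a1* (0.80), *Plekhg3* (0.80), *Sec14l5* (0.75), *Arsg* (0.74), *Pacs2* (0.74) and *Carhsp1* (0.73). After SD these too moved both ways, with *Arsg* lower by the largest amount (-0.56 ± 0.039, adjusted p = 1.7e-22, lower in 38 lines) and *Sec14l5* higher (0.22 ± 0.056, adjusted p = 0.00037, higher in 34 lines). *Ttyh2*, *Phldb1*, *Slc44a1*, *Plekhg3* and *Pacs2* were lower too, *Carhsp1* was higher, and *Plekhh1* and *Gatm* did not pass. Over the BXD/RwwJ lines alone *Slc44a1* and *Pacs2* did not pass (limma adjusted p = 0.098 and 0.10).

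Further genes of the lineage were counted over whole lists, and the genes named from each were chosen for small adjusted p-values. Of 30 other mature oligodendrocyte genes, 8 rose, 15 fell and 7 did not pass (10 and 15 with the line as a block), with a median change of -0.077. Beside them, 33.0% of all genes rose and 35.4% fell (36.6% and 39.6% with the line as a block). *Opalin*, a glycoprotein of mature cells, fell by 1.15 ± 0.071 (fold 0.450, adjusted p = 1.1e-25) in 39 of 39 lines, more than any member. *Pllp*, a proteolipid of myelin, fell by 0.50 ± 0.041 (adjusted p = 5.1e-19) in 38 lines. *Sox8*, a close relative of *Sox10*, rose by 0.44 ± 0.023 (adjusted p = 1.0e-29) in 38 lines, against the fall of *Sox10*. *Nfasc*, an adhesion protein of the node and the sheath's edge, rose by 0.20 ± 0.020 (adjusted p = 1.4e-15) in 38 lines.

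Of 15 other precursor or committed genes 5 rose, 1 fell and 9 did not pass (5 and 2 with the line as a block), with a median of 0.043, and their summed CPM was higher after SD in 32 lines (*Ptprz1* the most abundant). *Tnr*, a matrix protein, rose by 0.21 ± 0.049 (adjusted p = 8.5e-05) in 35 lines, *Epn2*, an endocytic adaptor, rose by 0.10 ± 0.012 (adjusted p = 8.2e-13) in 37 lines, and *Lhfpl3* fell by 0.17 ± 0.048 (adjusted p = 0.0013) in 31 lines. Of 20 genes of sterol and lipid synthesis 19 were listed (not *Hmgcs1*): 3 rose, 11 fell and 5 did not pass (4 and 13 with the line as a block), with a median of -0.098 (*Scd2* the most abundant). Both lists stood beside 33.0% of all genes that rose and 35.4% that fell (36.6% and 39.6% with the line as a block). The sterol regulator *Srebf1* fell by 0.33 ± 0.025 (adjusted p = 2.8e-21) in 39 of 39 lines, and *Elovl1*, which lengthens fatty acids, rose by 0.21 ± 0.047 (adjusted p = 5.3e-05) in 37 lines.

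Of 17 growth and axonal signals to the lineage 16 were listed (not *Cntf*): 7 rose, 3 fell and 6 did not pass (8 and 4 with the line as a block), with a median of 0.072, and their summed CPM was higher after SD in 39 lines (*Ntrk2* the most abundant). This list too stood beside 33.0% of all genes that rose and 35.4% that fell (36.6% and 39.6% with the line as a block). *Bdnf*, a neurotrophin, rose by 1.15 ± 0.068 (fold 2.22, adjusted p = 1.3e-26) in 38 lines. *Igf1r*, the receptor for insulin-like growth factor, rose by 0.29 ± 0.022 (adjusted p = 1.6e-20) in 39 lines. *Jag1*, a Notch ligand that holds back differentiation, fell by 0.40 ± 0.036 (adjusted p = 1.0e-16) in 39 lines, and *Enpp2* fell by 0.12 ± 0.043 (adjusted p = 0.014) in 29 lines.

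The tissue was checked against markers of its own and of other cells, and no listed marker was at 0 reads in most pools. Their counts stand beside 33.0% of all genes that rose and 35.4% that fell (36.6% and 39.6% with the line as a block). Neuron markers gave 1 of 7 higher (*Gad2* 0.079, not with quantile normalization) and 3 lower (among them *Syt1* -0.16 and *Slc17a7* -0.12), with a median sum of 12855 CPM in Ctr and 12589 in SD (*Camk2a* the most abundant). Astrocyte markers gave 2 of 7 higher (*Aldh1l1* 0.12 and *Slc1a3* 0.052) and 0 lower, and with the line as a block 6 of 7 higher and 0 lower. Their sums were 5705 and 5977 (*Slc1a2*), higher after SD in 32 lines. With limma, *Slc1a3* did not pass with quantile normalization or over the BXD/RwwJ lines alone (adjusted p = 0.30 and 0.078). It was also lost without lines high in choroid plexus or pituitary markers (0.051) and without BXD56, BXD89 and BXD90 (0.055). Microglia markers gave 2 of 7 higher (*Tmem119* 0.19, *C1qa* 0.19) and 3 lower (among them *P2ry12* -0.33), with sums of 355 and 343 (*Csf1r*). Endothelial markers gave 2 of 6 higher (*Pecam1* 0.17, *Flt1* 0.13) and 3 lower (among them *Slco1a4* -0.39 and *Cldn5* -0.24), with sums of 244 and 235 (*Flt1*). Markers of pericytes and smooth muscle gave 1 of 7 higher (*Abcc9* 0.30) and 2 lower (*Pdgfrb* -0.33, *Myh11* -0.20), with sums of 148 and 142 (*Rgs5*). Fibroblast markers gave 6 of 6 lower (among them *Lum* -0.41 and *Col1a2* -0.20), with sums of 73.3 and 62.2 (*Col1a2*).

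Of the 2 listed markers of Schwann cells, which make myelin outside the brain, 1 was lower (*Prx* -0.22, not with quantile normalization), with sums of 24.5 and 23.5 CPM (*Pmp22*). Striatum markers (6 of 7 listed, not *Drd1*) gave 2 higher (among them *Rgs9* 0.29, not over the BXD/RwwJ lines alone) and 0 lower, with sums of 189 and 215 (*Ppp1r1b*) and the highest pool in Ctr BXD56 at 361. *Rgs9* was lost as well without BXD79, BXD85 and BXD101 (limma adjusted p = 0.079) and without lines high in choroid plexus or pituitary markers (0.074). Thalamus markers (5 of 6, not *Lhx9*) gave 2 higher (*Prkcd* 0.30, *Slc17a6* 0.17) and 1 lower (*Ramp3* -0.28), with sums of 75.9 and 80.7 (*Slc17a6*). Hippocampus markers gave 1 of 5 higher (*Ociad2* 0.43) and 1 lower (*Prox1* -0.15, not over the BXD/RwwJ lines alone), with sums of 176 and 204 (*Wfs1*) and the highest pool again in Ctr BXD56 at 367. Choroid plexus (5 of 6, not *Folr1*; *Ttr* the most abundant, sums 21.6 and 17.1) and pituitary markers (2 of 5, not *Prl*, *Cga* and *Lhb*; *Gh*, sums 1.15 and 0.97) gave 0 calls with limma. The same pool, Ctr BXD56, was the highest Ctr pool in *Sox10*, *Tspan2* and *Lpar1*, and the part of neighbouring tissue in these members was not tested.

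To see whether *Mog* followed markers of other cells over the lines, it was set against the astrocyte gene *Aqp4* and the striatal receptor *Drd2*. With *Aqp4* it gave r = 0.18 in Ctr, 0.48 in SD (rho = 0.51, permutation p = 0.0019 and 0.0010, adjusted p = 0.0038 and 0.0022, 0.48 without the 2 farthest pools) and 0.087 for the change. With *Drd2* it gave -0.0068, 0.26 and -0.028, and did not pass.

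The fifth comparison asked whether the response to SD of these genes differed between liver and cortex, over the 39 lines with pools of both tissues. In liver 18 of the 30 members were listed. Reads recovered on the listed genes of a liver library numbered 5034166 to 8269401 in Ctr and 4681101 to 8009362 in SD. The tables of both tissues were normalized separately, so only the changes were compared. The change differed for 9 of 18 members, beside 57.6% of the 12695 genes listed in both tissues. It was higher in liver for 4, beside 28.0%, and lower for 5, beside 29.6%. In liver itself 5 members changed (*Gjc3* higher, and *Mbp*, *Cnp*, *Lpar1* and *Enpp6* lower), beside 44.2% of all genes listed there. With the line as a block 8 members changed in liver, beside 53.9% of all genes, *Olig1* higher and *Car2* and *Plekhb1* lower in addition.

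*Aspa* differed most. In liver it ran from 4.86 to 5.84 in Ctr with a median of 5.43, and from 4.91 to 6.16 in SD with a median of 5.46. The liver pools of both conditions overlapped almost fully, unlike those of cortex. The change was 0.040 ± 0.051 in liver against -0.66 in cortex, a difference of 0.70 ± 0.055 (adjusted p = 1.4e-14). *Enpp6* fell in both tissues, by 0.89 ± 0.15 in liver (adjusted p = 7.4e-07, lower in 35 lines) and by 0.24 in cortex (difference -0.65 ± 0.13, adjusted p = 4.0e-05). *Cnp* fell by 0.30 ± 0.050 in liver (adjusted p = 3.2e-07, lower in 36 lines), 0.13 more than in cortex (difference -0.13 ± 0.032, adjusted p = 0.00077, not passed without pairing by line at 0.086). *Gjb1*, an abundant liver connexin at a median of 7.63 in Ctr, gave -0.0067 ± 0.033 in liver and did not differ in its change (-0.0090 ± 0.056, 0.0011 with each library centred on its median).

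*Mbp* was low in liver (median 1.82 in Ctr and 1.43 in SD) and fell there by 0.30 ± 0.10 (adjusted p = 0.012, lower in 28 lines). *Gjc3* rose in both tissues, by 0.43 ± 0.11 in liver (adjusted p = 0.0012, higher in 33 lines), and its difference of 0.23 ± 0.091 (adjusted p = 0.026) was lost over the 33 BXD/RwwJ lines alone (0.15, adjusted p = 0.18) and without pairing by line (adjusted p = 0.11). *Lpar1* fell in liver by 0.36 ± 0.13 (adjusted p = 0.022, lower in 28 lines). *Pdgfra* was well measured in both tissues (median 4.75 in liver Ctr), and its liver change of 0.049 ± 0.070 did not pass. Its difference between tissues (0.12, limma adjusted p = 0.056) passed with each library centred on its median (0.13, adjusted p = 0.031). That of *Mal* (-0.22, adjusted p = 0.054) passed with a prior count of 5 (-0.20, adjusted p = 0.033). Without pairing by line, 6 members passed for the difference between tissues, and *Cnp*, *Gjc3* and *Plekhb1* (adjusted p = 0.57) were lost. *Plekhb1* was lost over the 33 BXD/RwwJ lines alone as well (adjusted p = 0.090).

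The 4 BXD/TyJ lines, kept out of the tests above, gave the same signs for the members with the largest changes. *Gpr17* was higher after SD by 0.52 in BXD05, 0.44 in BXD29, 0.36 in BXD29t and 0.64 in BXD32. *Aspa* changed by -1.15, -0.78, -0.62 and -0.76 in the same order, and *Omg* by -0.47, -0.27, -0.25 and -0.29. *Olig2* was higher in all 4 (0.13, 0.22, 0.28 and 0.13). *Mog*, *Mag*, *Cnp* and *Gpr37* were lower in all 4. *Mobp* was higher in 3 of 4, with BXD29t at -0.14, and *Mal* in 1 of 4. *Pdgfra* gave 0.22, -0.28, -0.17 and -0.064, so its sign differed between these lines.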

How the data were processed

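The deposited values were log2 CPM per gene and pool. Per the submitters' processing notes and the study's methods, the authors checked reads with FastQC, aligned them with STAR to mm9, counted them per RefSeq gene and strand with HTSeq, and scaled them with edgeR; the versions of STAR, HTSeq and edgeR are not given in the sources used here. The methods leave out genes under a minimum mean raw read count. The lowest mean among listed cortex genes, 4.93 reads, lay below that stated minimum. Which libraries the authors' mean covered is not stated in the sources used here. The tables of both tissues were normalized separately. In cortex the log2 scaling factors averaged 0.00065 over both conditions, 0.012 in the Ctr pools and -0.012 in the SD pools. Both conditions thus appear to have been scaled together. A gene without reads had its own value in each table, -4.51 in Ctr and -4.52 in SD. The median cortex library differed by 0.0042 between SD and Ctr. Whole reads were recovered for 100% of values (within 0.02 of a whole read).

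Tests used limma 3.58.1 in R 4.3.3 (lmFit, eBayes with a variance trend) on the log2 CPM, with Benjamini-Hochberg adjustment over all listed genes. Permutation tests were run with numpy 2.4.6, with ranks from scipy 1.17.1, under Python 3.11.15. SD was compared with Ctr over 39 pools each without a block. Lines were tested by the F test of line terms, strains with condition as covariate, and tissues on each line's difference of changes. The pools of a line were checked for pairing: their deviations from the group means correlated in all 39 cortex lines (lowest r 0.299, median 0.614, highest 0.712), and 37 of 39 correlated best with their own line.

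Lengths and positions came from gencode vM1 on mm9, while the authors counted RefSeq genes; no member shared exonic bases with another gene on its strand. The members and lists were chosen with earlier results of these data known. Named genes are all members, up to 2 genes per direction with the smallest adjusted p from each companion or other-cell list, and the 10 genes most like the mature mean; the most abundant gene of each list, *Aqp4* and *Drd2* are named as well. Alternatives were voom on recovered reads, other scaling, prior counts and filters, the line or sampling time as a block, no variance trend, and other sets of pools. The BXD/TyJ lines entered only an alternative. Leaving out lines high in choroid plexus or pituitary markers, and the 3 lines that stood apart, was chosen after seeing the data.

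A few single genes of the added gene lists and marker lists are not reported here; the counts per list include them.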

Additional observations from a re-analysis of the deposited data

Results flagged for a closer look

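In the 4 BXD/TyJ lines, 60 groups of 4 pools (30 members in 2 conditions) were looked at for a pool far from the other 3, which chance gives in about 1 in 20 groups, and 4 were found. *Cnp* in Ctr stood at 7.80 log2 CPM in BXD29, against 7.99 to 8.02 in the others. *Nkx2-2* in SD stood at 1.82 in BXD29, against 1.33 to 1.40. *Enpp6* stood low in BXD05 in both conditions, at 2.38 in Ctr (others 2.76 to 2.82) and 1.84 in SD (others 2.34 to 2.40).

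The response to SD differed between liver and cortex by a limma test of the difference for 9 members. The change in liver minus that in cortex was 0.70 for *Aspa*, 0.23 for *Gjc3*, 0.14 for *Qdpr* and 0.073 for *Sirt2*. It was -0.65 for *Enpp6*, -0.32 for *Lpar1*, -0.30 for *Mbp*, -0.13 for *Cnp* and -0.10 for *Plekhb1*, which did not pass with each library centred on its median (-0.093, adjusted p = 0.083), over the 33 BXD/RwwJ lines alone (0.090) or without pairing by line (0.57). Causes of these differences were not tested.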

How the results depend on the processing

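The number of members that changed after SD was 20 and stayed between 19 and 23 over 15 alternatives, with 23 under the replicate block (line), which added *Fa2h*, *Car2* and *Bcas1* and changed no other member's call. The line count of 27 ranged from 25 to 29 (10 alternatives) and the 21 called relations from 20 to 23 (4). The median changes ran from -0.0077 to 0.019 (mature) and from -0.0055 to 0.013 (precursor).

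The D2 minus B6 count of 19 ranged from 11 to 18 without single replicates (lower in D2: 10 to 17) and was 11 without a variance trend (10 lower); the replicate block (sampling time) gave 19. The tissue count of 9 was 6 with no replicate block (3 lower), 7 over the 33 BXD/RwwJ lines alone and up to 10 otherwise. *Pdgfra* was gained with median-centred libraries and *Mal* with a prior count of 5. A replicate block (line) in the liver fit gave 8 changed members in place of 5.

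Signs turned only for values past the threshold in neither fit; the cause was not tested. After SD: *Mbp* with voom (-5.9e-05), median-centred libraries (-0.0040), 43 pools per condition (-0.0077), without BXD79, BXD85 and BXD101 (-0.0025) and without the 3 lines that stood apart (-0.0024); *Gjb1* with median-centred libraries (-0.0019), 43 pools (-0.016) and without BXD79, BXD85 and BXD101 (-0.0085); *Cldn11* (-0.018) and *Plekhb1* (-0.032) with quantile normalization; *Cspg4* with quantile normalization (-0.0028), the 33 BXD/RwwJ lines (-0.0055) and without the 3 lines (-0.0019); *Gatm* with the BXD/RwwJ lines (0.0011) and without lines high in choroid plexus or pituitary markers (0.00088). D2 minus B6 without single replicates: *Olig1* (-0.19 to 0.0064), *Lpar1* (-0.13 to 0.0050), *Plekhb1* (-0.11 to 0.15), *Olig2* (-0.037 to 0.12) and *Gpr37* (-0.19 to 0.027); *Plekhb1* in Ctr pools alone (-0.022). Tissue: *Gjb1* median-centred (0.0011), *Mag* with a prior count of 5 (0.011). Relations: *Mog* with *Drd2* in Ctr over BXD/RwwJ lines (0.037) and without the 2 farthest pools (0.12), and for the change without the 3 lines (0.058); *Mog* with *Pdgfra* in Ctr without the 2 farthest pools (0.039).

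Of single-gene SD values, 1176 kept sign and call, 14 lost and 9 gained the call; D2 minus B6 gave 293, 29 and 0. Low counts limit *Nkx2-2* and *Enpp6*, and single pools per line limit every line value.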
